A study of Mus musculus with 18 samples.

Results

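The comparison described here is that of total RNA between 3 transgenic and 3 control mice, 6 of the 18 arrays of the study. The transgenic mice are TgCPEB4∆4 animals, which carry a transgene for CPEB4 lacking a microexon (labelled Tg), and the controls are labelled CTRL. All 6 mice were 6 weeks old, and cortex and striatum were dissected as 1 sample, so each sample is a mixture of all cell types of these regions. Besides total RNA (the input), the study separated the RNA of each mouse on a poly(U) column into fractions enriched for short and for long poly(A) tails. The promoter that drives the transgene, the genetic background and the sex of the mice are not stated in the labels. The members of the comparison were found through the sample titles, and genes were measured through probe sets that the platform annotation assigns to 1 gene, without the control probe sets. Of 17097 such genes, 11974 had a probe set above the filter on low values (mean of the 18 arrays above the 40th percentile). Each gene was represented by its tested probe set with the highest mean over the 6 arrays. Values are log2 levels as summarised by RMA (robust multi-array average), so a difference of 1 is a factor of 2.

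CPEB4 belongs to the cytoplasmic polyadenylation element binding proteins, which bind U-rich elements in the ends of mRNAs and recruit the enzymes that lengthen or shorten the poly(A) tail, and through this set translation. In neurons the family acts on mRNAs of synapses and of plasticity. The microexon of CPEB4 is included mainly in neurons. The total RNA arrays compare the amount of each transcript between the genotypes. In such a tissue sample, fewer cells of a type and less RNA per cell cannot be told apart.

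The 6 arrays were alike in their bulk values. Their medians lay between 6.49 and 6.52, and every pair of arrays correlated at 0.951 to 0.990 over the tested probe sets. The highest nonspecific control probe set, used here as the bar for a signal above background, stood at 7.07 to 7.52, and 6733 of the tested genes lay above it on all 6 arrays and 3051 on none. Transgenic mouse 1 stood apart. On the first principal component, with 54.3% of the variance, it scored 50.5, against 8.9 and -9.0 in the other transgenic mice and -11.2, -15.7 and -23.5 in the controls. In this mouse 183 probe sets lay over 1 log2 unit above all 5 other mice and 31 as far below them, whereas each of the other 5 mice had at most 2 in either direction. The results below are therefore given with their values in each mouse and, where they rest on it, without transgenic mouse 1.

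**Figure D1:**
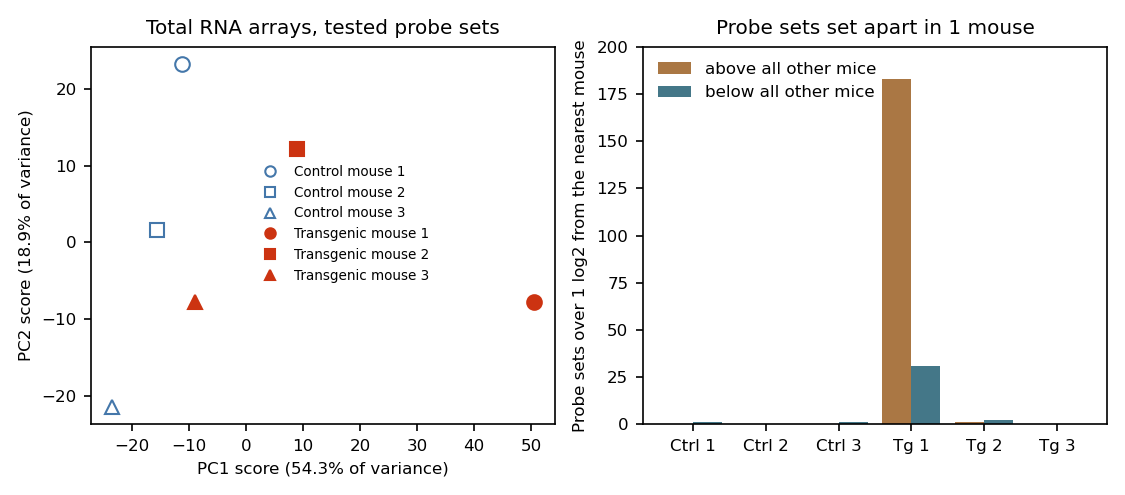
The left panel plots the first against the second principal component score of the 6 total RNA arrays, and the right panel counts, for each mouse, the probe sets more than 1 log2 unit above or below all other mice. Transgenic mouse 1 lies alone at a score of 50.5 and has 183 probe sets above and 31 below the others.

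No transcript passed the test between the genotypes. The gene lists with the largest median differences were those of reactive astrocytes, microglia, meningeal fibroblasts, MHC class I and interferon-stimulated genes, and transgenic mouse 1 was the highest mouse in each of them. By limma with Benjamini-Hochberg adjustment, 0 of 27022 probe sets passed an adjusted p of 0.05 (0.0%), and the lowest adjusted p was 0.36. At an unadjusted p under 0.05, 1955 probe sets were higher (7.23%) and 980 lower (3.63%) in transgenic mice. Among genes these shares were 8.15% and 3.12%. Of the genes, 1578 (13.2%) were higher in all 3 transgenic than in all 3 control mice and 798 (6.66%) lower in all 3. These shares of genes whose groups do not overlap are the background for the counts below. The median difference over all genes was 0.03, and the 5th and 95th percentiles were -0.27 and 0.41. Of all genes tested 57.2% were higher in transgenic mice, the base for counts of higher members below. This share was 63.4% with a 60th percentile filter and 46.3% after median centring. With weights for each array 3901 probe sets passed, with weights of 7.07 for control mouse 2, 2.77 for transgenic mouse 2 and 0.317 to 0.595 for the others. Of the probe sets under the unadjusted threshold, 66.6% were higher in transgenic mice, and this share was 42.8% after median centring of the arrays, 53.2% after quantile normalization again, 54.3% without the filter and 74.9% with a 60th percentile filter.

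The 12 genes with the largest excess in transgenic mice, among genes whose groups did not overlap, were led by transcripts of reactive glia, complement and the interferon response. Vimentin (Vim), the intermediate filament of reactive astrocytes, read 7.40, 7.73 and 7.46 in the controls and 11.44, 9.49 and 7.88 in the transgenic group. The log2 difference was 2.08 ± 0.71 (SE, n = 3; adjusted p = 0.43, limma). The complement component C4b read 7.45, 7.61 and 7.63 in the controls and 11.20, 9.79 and 7.72 in the transgenic group (difference 2.00 ± 0.70, adjusted p = 0.43). For both genes transgenic mouse 1 was high, mouse 2 between it and the controls, and mouse 3 just above the highest control. Without transgenic mouse 1 the differences of Vim and C4b were 1.16 and 1.19. Cirbp, a cold-inducible RNA-binding protein, read 6.98, 6.93 and 6.73 in the controls and 9.05, 8.27 and 7.86 in the transgenic group (difference 1.51 ± 0.26, adjusted p = 0.42). All 3 transgenic mice lay clear of the controls for Cirbp, but no control array was above the bar, so the size of the difference is not exact. Hspb8, a small heat shock protein, differed by 1.27 ± 0.44, and Cyba, the small membrane subunit of the phagocyte NADPH oxidase, by 1.22 ± 0.43. The SNARE protein Vamp8 (1.22 ± 0.35), the membrane protein Tmem176a (1.14 ± 0.41), the calcium-binding protein S100a11 (1.12 ± 0.42) and the actin-binding protein Cotl1 (1.10 ± 0.21) followed. The others were Ifitm3, Lgals3bp and the lysosomal microglial protein Cd68, described with their classes. All 12 were highest in transgenic mouse 1, and their adjusted p values lay between 0.42 and 0.44. Without this mouse their differences lay between 0.49 (Cd68) and 1.19 (C4b).

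The 12 genes with the largest deficit in transgenic mice were smaller in effect, from -0.80 to -0.63, and included neuronal signalling genes. Ddit4l, a relative of the mTORC1 inhibitor Ddit4, read 8.43, 8.56 and 8.30 in the controls and 7.36, 7.71 and 7.82 in the transgenic group (difference -0.80 ± 0.14, adjusted p = 0.42, limma), with 2 of 3 transgenic arrays above the bar. Rgs4, which shortens G-protein signals, read 11.60, 11.65 and 11.68 in the controls and 10.33, 11.29 and 11.34 in the transgenic group (-0.66 ± 0.24, and -0.33 without transgenic mouse 1). Lamp5, a membrane protein of cortical neurons, read 11.63, 11.49 and 11.46 against 10.48, 11.01 and 11.16 (-0.64 ± 0.17). In each of these 3 genes transgenic mouse 1 was lowest, and the nearest mice of the groups lay 0.26 to 0.48 apart. Cbln2, a secreted synapse organiser, differed by -0.65 ± 0.24, the pyruvate dehydrogenase phosphatase Pdp1 by -0.65 ± 0.21, the collagen Col19a1 by -0.63 ± 0.19 and the copine Cpne9 by -0.63 ± 0.22. Slow troponin C (Tnnc1, -0.71 ± 0.31), the follistatin-like gene Fstl4 (-0.69 ± 0.21) and the unnamed genes 5031426D15Rik, Gm14169 and Gm2824 (-0.69, -0.68 and -0.64) complete the 12. Transgenic mouse 1 was the lowest in 11 of them, with Col19a1 lowest in transgenic mouse 3. Without mouse 1 the differences lay between -0.67 (Ddit4l) and -0.30 (Tnnc1). No gene with separate groups was lower by more than 1 log2 unit, while 29 were higher by more than that.

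**Figure D2:**
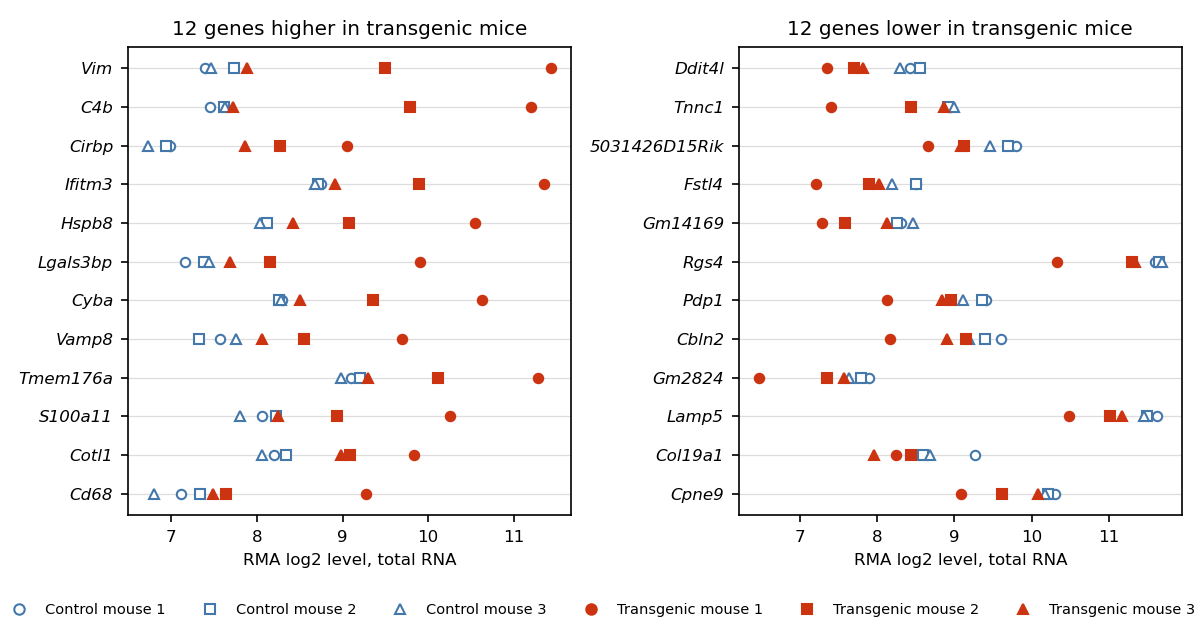
Each row is 1 gene and each point the RMA log2 level of 1 mouse in total RNA, for the 12 genes with the largest positive and the 12 with the largest negative difference among genes whose groups do not overlap. Transgenic mouse 1 lies furthest from the controls in all 12 genes of the left panel and in 11 of 12 in the right panel.

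Because 1 mouse set many of these differences, genes were also ordered by the gap between the nearest mice of the groups, a choice made after the values were seen. Only genes above the bar in all 3 mice of the higher group were ordered. Among them the gap exceeded 0.5 in 6 genes higher in transgenic mice and in 0 lower, and 0.25 in 72 and 13 genes. Cirbp had the widest gap (0.88), then Cotl1 (0.63), which read 8.20, 8.34 and 8.06 in the controls and 9.83, 9.09 and 8.98 in the transgenic group. Of the 3 other tested probe sets of Cotl1, 2 had the same sign. Ddit4, which restrains mTORC1 and responds to stress and glucocorticoids, read 6.81, 6.94 and 7.28 against 8.36, 7.85 and 7.97 (difference 1.05 ± 0.17, adjusted p = 0.42, limma), with no control array above the bar. Hrk, a BH3-only cell death protein of neurons, read 7.56, 7.74 and 7.57 against 8.97, 8.31 and 8.30 (0.91 ± 0.18). Slc25a18, a mitochondrial glutamate carrier of astrocytes, read 7.63, 7.90 and 7.89 against 9.14, 8.52 and 8.45 (0.89 ± 0.19). In Cotl1, Ddit4, Hrk and Slc25a18 the other 2 transgenic mice lay close together, clear of the controls, and mouse 1 above them. In other genes mouse 1 did not stand out. Prr5, a component of mTORC2, read 7.35, 7.32 and 7.37 against 7.81, 7.79 and 7.98, and the spliceosome protein Plrg1 read 8.36, 8.36 and 8.34 against 8.87, 8.77 and 8.76. On the lower side Ddit4l led (0.48), followed by Ptprn2, a membrane protein of dense-core vesicles, at 11.33, 11.31 and 11.12 against 10.59, 10.64 and 10.77 (-0.59 ± 0.11, adjusted p = 0.42). Nectin3, a cell adhesion protein of synapses, differed by -0.52 ± 0.12, and Kctd16, an auxiliary subunit of GABA-B receptors, by -0.37 ± 0.10, with transgenic mice between 7.94 and 8.11 and controls between 8.37 and 8.40. Over all 1578 genes higher in every transgenic mouse, mouse 1 was the furthest from the controls in 950, mouse 2 in 333 and mouse 3 in 295. Of the 798 lower genes these numbers were 547, 168 and 83.

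The gene family of the transgene itself did not differ beyond the spread between mice. Cpeb4 read 8.44, 8.36 and 8.30 in the controls and 8.58, 8.55 and 7.99 in the transgenic group (0.01 ± 0.16, adjusted p = 0.99, limma). The labels do not say whether its probe set detects the transgene. Cpeb1 (0.33 ± 0.22), Cpeb2 (-0.09 ± 0.12) and Cpeb3 (-0.14 ± 0.12) also had overlapping groups, and Cpeb2 was above the bar in no mouse. Of 43 tested genes of the CPEB family and the poly(A) machinery, 30 were higher and 13 lower, with a median of 0.11 (0.05 without transgenic mouse 1). Groups did not overlap in 7 higher and 1 lower (16.3% and 2.33%, against 13.2% and 6.66% of all genes), so the higher share was near that of all genes. Btg1, which recruits deadenylases, read 8.32, 8.23 and 8.33 against 9.24, 8.91 and 8.43 (0.57 ± 0.19). The cleavage endonuclease Cpsf3 (0.38 ± 0.11), the deadenylation adaptor Tob2 (0.35 ± 0.12) and the CCR4-NOT subunit Cnot8 (0.31 ± 0.11) were also higher in all 3 transgenic mice. None passed the test (adjusted p = 0.42 to 0.43, limma).

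Markers of astrocytes and microglia were mostly higher in transgenic mice, furthest in mouse 1 and least in mouse 3. Of 23 tested astrocyte markers 22 were higher, 9 with groups that did not overlap (39.1%), and the median difference was 0.30. Per mouse, the median deviation of the markers from their mean over the 6 mice was -0.10, -0.15 and -0.24 in the controls and 0.40, 0.10 and -0.07 in the transgenic group. Slc25a18 had the largest difference with separate groups, and the transcription factor Sox9 followed with 8.21, 8.18 and 8.20 against 9.77, 8.91 and 8.32 (0.81 ± 0.30, adjusted p = 0.43, limma). The folate enzyme Aldh1l1 differed by 0.72 ± 0.22 and the water channel Aqp4 by 0.58 ± 0.20. The main glutamate transporter Slc1a2 was the 1 marker lower in all 3 transgenic mice, at 12.71, 12.75 and 12.70 against 12.65, 12.69 and 12.67 (-0.05 ± 0.09). Without transgenic mouse 1 the astrocyte median was 0.17, with 21 of 23 markers still higher.

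Of 20 tested microglial markers, from 23 on the array, 17 were higher and 14 were above the bar on all 6 arrays. Groups were separate in 10, a share above the 13.2% of all genes. The filter on low values includes the arrays of transgenic mouse 1, in which 18 markers were highest, so the counts can partly be set by it. The median was 0.61, and 0.55 without the filter. It was 0.30 without transgenic mouse 1 and 0.78 without transgenic mouse 3. Per mouse the deviations were -0.24, -0.29 and -0.22 in the controls and 0.87, 0.12 and -0.11 in the transgenic group, so that all 3 transgenic mice lay above all controls. C1qc and C1qb, chains of the complement initiator C1q, differed by 1.03 ± 0.41 and 0.99 ± 0.37. C1qb read 9.21, 9.21 and 9.10 in the controls and 11.16, 9.93 and 9.40 in the transgenic group. Cd68, a lysosomal protein that marks phagocytic microglia, read 7.11, 7.33 and 6.79 against 9.27, 7.64 and 7.49 (1.05 ± 0.41, adjusted p = 0.44, limma), with 1 of 3 control arrays above the bar. Fcrls, a receptor of resident microglia, differed less, at 9.83, 9.99 and 9.96 against 10.56, 10.38 and 10.05 (0.40 ± 0.14). Of the markers of border macrophages and blood leukocytes, 6 of 14 on the array were tested and none stood above the bar on all 6 arrays (median -0.04).

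Markers of the brain's coverings were higher in transgenic mice, whereas those of vessels overlapped between the groups. All 21 tested markers of meningeal fibroblasts, from 24 on the array, were higher. Groups were separate in 10 (47.6%, against 13.2% of all genes), and 11 were above the bar on all 6 arrays. The filter on low values includes the arrays of transgenic mouse 1, in which 16 markers were highest, so the counts can partly be set by it. The median was 0.52 (0.37 without transgenic mouse 1, and 0.50 without the filter). The deviations per mouse were -0.30, -0.22 and -0.20 in the controls and 0.62, 0.26 and -0.06 in the transgenic group. The growth factor Igf2 read 9.92, 9.97 and 9.66 against 10.97, 10.78 and 10.03 (0.74 ± 0.23, adjusted p = 0.42, limma). The matrix protein Mgp read 8.14, 8.18 and 8.27 against 9.39, 8.87 and 8.51 (0.72 ± 0.20), and the prostaglandin D synthase Ptgds 12.38, 12.34 and 12.35 against 12.77, 12.55 and 12.41 (0.22 ± 0.12). In these 3 genes, as in the glial markers, transgenic mouse 1 was the highest and transgenic mouse 3 the nearest to the controls. How much of the glial and immune differences goes with the amount of meninges in a sample was not tested. Of 20 endothelial markers 16 were higher and 4 had separate groups (20.0%), with a median of 0.12, and 0.29 over the 9 markers above the bar on all 6 arrays. Their deviations per mouse, -0.12, 0.02 and -0.12 for the controls and 0.16, 0.04 and 0.01 for the transgenic mice, overlapped. The glucose transporter Slc2a1 read 10.75, 10.64 and 10.45 against 11.13, 10.92 and 10.88 (0.37 ± 0.12), and the tight junction protein Cldn5 7.33, 7.81 and 7.79 against 7.93, 8.00 and 7.97. Of the 8 mural cell markers 5 were higher and 3 lower, with overlapping deviations and a median of 0.11 (0.02 without transgenic mouse 1, and 0.0001 without the filter on low values). Vtn, an adhesion protein of pericytes, was the 1 gene with separate groups (12.5%, 0.49 ± 0.17). Haemoglobin Hba-a1, from red blood cells in the tissue, read 12.16, 12.44 and 12.40 against 12.88, 12.78 and 12.40. Ttr, which marks choroid plexus, overlapped between the genotypes, at 9.28, 10.66 and 9.61 against 12.05, 8.81 and 11.38. Of 12 markers of choroid plexus and ependyma on the array 6 were tested, and 2 were above the bar on all 6 arrays. The median of those tested was 0.28, and 0.09 without transgenic mouse 1, with overlapping deviations per mouse. Without the filter on low values the median was 0.10.

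Oligodendrocyte markers leaned the other way. Of 21 tested, 16 were lower and 5 higher. Groups were separate in 2 lower and 1 higher (9.52% and 4.76%, against 6.66% and 13.2% of all genes). The median was -0.09, lowest without control mouse 3 (-0.14) and nearest to 0 without transgenic mouse 3 (-0.06). The deviations per mouse were 0.14, 0.08 and -0.0206 in the controls and -0.07, -0.0221 and -0.07 in the transgenic group. Control mouse 3 and transgenic mouse 2 were thus nearly level. The myelin protein Mal read 12.23, 12.21 and 12.13 in the controls and 11.84, 12.00 and 12.00 in the transgenic group (-0.24 ± 0.10, adjusted p = 0.45, limma). Gsn, an actin-severing protein that oligodendrocytes share with other cells, went against the list at 8.92, 9.07 and 8.78 against 9.68, 9.54 and 9.23 (0.56 ± 0.14). The 10 markers of precursors had a median of 0.00, whose sign turned after median centring (-0.05), and Lhfpl3, a membrane protein of these cells, was higher in all 3 transgenic mice (0.56 ± 0.18).

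**Figure D3:**
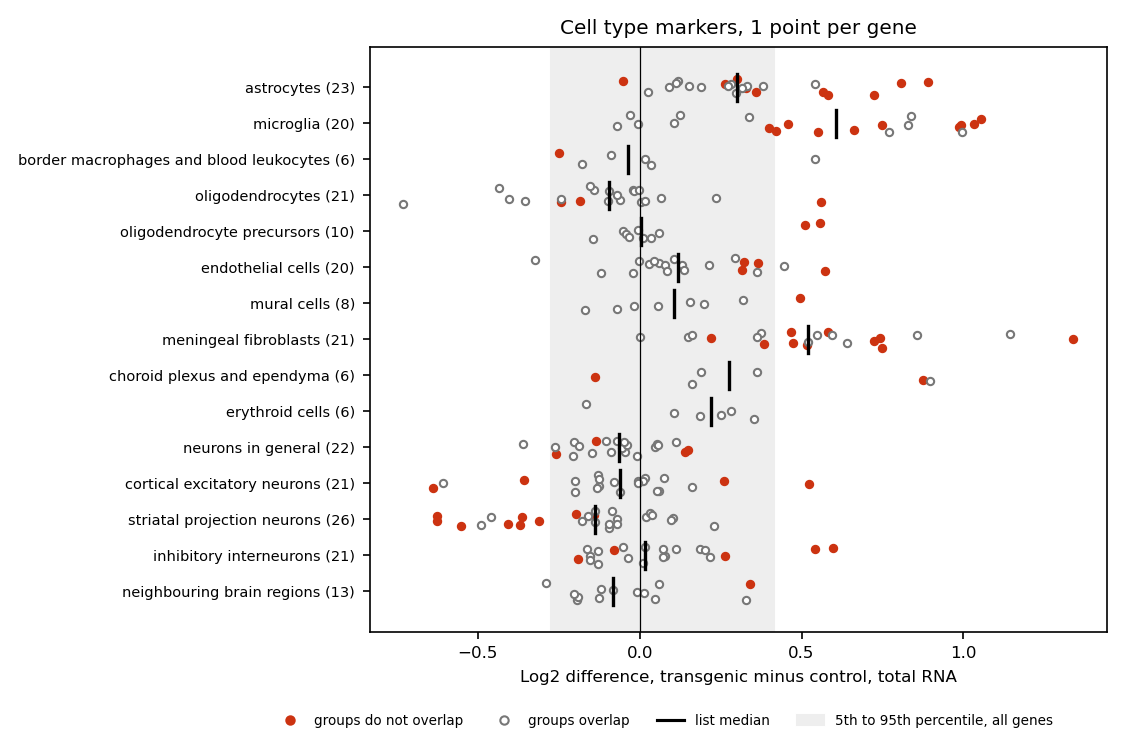
Each point is 1 marker gene, placed at its log2 difference between transgenic and control mice in total RNA, with the list median as a bar and the 5th to 95th percentile of all genes tested (-0.27 to 0.41) shaded. The medians of microglial (0.61), meningeal (0.52) and astrocyte (0.30) markers lie to the right, and that of striatal projection neurons (-0.14) to the left.

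Reactive astrocyte and acute-phase genes had the largest median of the lists examined. All 17 tested genes had a positive difference and all 17 were highest in transgenic mouse 1, but only 4 had separate groups (23.5%) and 5 were above the bar on all 6 arrays. Of 23 genes on the array 6 did not pass the filter on low values, and some, such as Lcn2 and Osmr, were above the bar in transgenic mouse 1 alone. The count of positive differences is therefore partly set by the filter. The median was 0.77 (0.57 without the filter), and it was 0.12 without transgenic mouse 1 and 1.18 without transgenic mouse 3. The deviations per mouse were -0.42, -0.56 and -0.33 in the controls and 1.58, -0.11 and -0.46 in the transgenic group, so mouse 3 lay among the controls. Gfap, the filament protein of astrocytes, read 10.58, 10.51 and 10.47 in the controls and 12.75, 12.17 and 10.51 in the transgenic group (1.29 ± 0.47). Here mice 1 and 2 were both high and mouse 3 was level with the controls. Stat3, which relays cytokine signals to this programme, read 8.48, 8.60 and 8.22 against 9.69, 8.68 and 8.66 (0.57 ± 0.26, adjusted p = 0.47, limma).

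The 8 genes that stood furthest from all other mice in transgenic mouse 1 included acute-phase, phagocyte and interferon-stimulated genes. Lcn2, an iron-binding acute-phase protein, read 10.78 in this mouse and 5.20 to 5.48 in the other 5, none of which was above the bar. Serpina3n, a serine protease inhibitor of reactive astrocytes, read 11.79 in mouse 1, 8.64 in mouse 2 and 5.93 to 6.27 in the other 4. The protease inhibitor A2m read 10.53 against 7.11 to 7.57, and Osmr, a receptor chain for oncostatin M, 9.87 against 5.66 to 6.92. Lgals3, a galectin of activated phagocytes, read 8.68 against 5.81 to 6.17, the receptor C3ar1 for complement 9.77 against 6.35 to 7.45, the glycosyltransferase Galnt15 9.10 against 5.63 to 6.75, and Rtp4, an interferon-stimulated gene, 9.69 against 6.67 to 7.31. Each of these 8 genes was also highest in mouse 1 on its short-tail and its long-tail array, which come from the same RNA. For Lcn2 these values were 11.10 and 10.70, against at most 5.61 in the other mice.

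In none of the other 5 mice did a gene lie over 1 log2 unit from all others. Examples from the 8 genes that stood furthest out in each mouse follow. In control mouse 1 the zinc finger gene Zfp950 read 7.38 against 5.48 to 6.57, the activity-induced factor Egr2 read 8.17 against 6.28 to 7.40, and the lipid carrier Apoe 8.54 against 9.19 to 10.28. In control mouse 3 Fos, an early gene of neuronal activity, read 7.73 against 8.33 to 8.71. In control mouse 2 Cog6, of the Golgi tethering complex, read 8.19 against 7.51 to 7.78. In transgenic mouse 2 the gene 2510039O18Rik read 7.99 against 7.07 to 7.41, and Ttr was the lowest of all mice. In transgenic mouse 3 the nuclear receptor Nr2f6 read 7.94 against 7.06 to 7.23, the neuronal glutamate transporter Slc1a1 read 9.67 against 10.19 to 10.58 and the guanylate cyclase subunit Gucy1b1 9.52 against 10.01 to 10.23.

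Interferon-stimulated genes are switched on through a response element in their promoters that binds STAT and IRF factors. The promoters of 3 of them are shown, from 250 bases before to 50 after the start (RefSeq, GRCm38.p6, 5′ to 3′ on the gene's strand), because their genes were high in transgenic mouse 1, a choice made after their values were seen. Capitals mark matches to the motif GAAANNGAAA on either strand. Ifitm3 (chr7:141010695-141010994, minus strand) and Ifit3 (chr19:34583279-34583578, plus strand) hold 2 matches each, and Lgals3bp (chr11:118401910-118402209, minus strand) none.
Ifitm3: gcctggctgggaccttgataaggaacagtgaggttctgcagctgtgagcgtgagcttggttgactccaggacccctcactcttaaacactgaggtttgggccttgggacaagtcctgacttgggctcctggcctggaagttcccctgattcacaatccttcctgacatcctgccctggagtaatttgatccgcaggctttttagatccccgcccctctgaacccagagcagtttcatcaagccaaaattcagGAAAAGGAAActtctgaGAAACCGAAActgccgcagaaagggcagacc
Ifit3: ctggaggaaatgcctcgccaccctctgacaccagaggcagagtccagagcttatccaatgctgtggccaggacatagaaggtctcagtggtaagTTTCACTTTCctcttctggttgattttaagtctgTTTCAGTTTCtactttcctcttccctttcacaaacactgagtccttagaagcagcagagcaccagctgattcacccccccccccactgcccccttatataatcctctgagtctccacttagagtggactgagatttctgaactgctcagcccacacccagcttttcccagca
Lgals3bp: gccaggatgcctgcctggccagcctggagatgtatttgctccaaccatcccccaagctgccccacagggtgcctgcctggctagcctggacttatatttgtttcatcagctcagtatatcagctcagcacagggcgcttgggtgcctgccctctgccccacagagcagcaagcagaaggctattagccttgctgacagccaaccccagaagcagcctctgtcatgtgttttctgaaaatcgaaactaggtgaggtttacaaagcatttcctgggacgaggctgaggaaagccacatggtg
Of 19 tested interferon-stimulated genes 15 were found in the RefSeq promoter table, and 7 of these held the motif, against 3.99% of 27025 genes in the table and 3.38% of the 9645 tested genes found there. A match is a description of the letters and was not tested as a site.

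Of the 19 tested interferon-stimulated genes 16 were higher, 14 were highest in transgenic mouse 1, and 5 were higher and 1 lower with separate groups (26.3% and 5.26%). Only 5 of the 19 were above the bar on all 6 arrays. The array held 31 genes of the list, and the others did not pass the filter on low values. That filter includes the arrays of transgenic mouse 1, so the counts are partly set by it. The median was 0.43 (0.30 without the filter), and 0.09 without transgenic mouse 1. The deviations per mouse were -0.21, -0.26 and -0.28 in the controls and 0.81, -0.02 and -0.21 in the transgenic group. Ifitm3, a membrane protein that blocks virus entry, read 8.75, 8.71 and 8.68 in the controls and 11.35, 9.90 and 8.91 in the transgenic group (1.34 ± 0.49, adjusted p = 0.43, limma), and Lgals3bp, a secreted galectin ligand, 7.15, 7.38 and 7.44 against 9.90, 8.15 and 7.68 (1.25 ± 0.47). Ifi27 read 9.20, 9.33 and 9.21 against 10.61, 9.81 and 9.61 (0.76 ± 0.23), higher in each transgenic mouse. Ifit3, which binds viral RNA complexes, was high in mouse 1 alone, at 8.44, 8.55 and 8.62 against 10.55, 8.71 and 8.42.

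Of 12 tested genes of MHC class I and antigen processing 10 were higher, 4 with separate groups (33.3%), and the median was 0.47 (0.24 without transgenic mouse 1). The heavy chain H2-D1 read 9.24, 9.38 and 9.37 against 10.93, 9.88 and 9.44 (0.75 ± 0.32). Psme1, a subunit of the PA28 activator of the immunoproteasome, stood clear of the controls in all 3 mice, at 8.12, 8.29 and 8.13 against 9.42, 9.05 and 8.81 (0.91 ± 0.16, and 0.75 without transgenic mouse 1).

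Transcripts of protein synthesis and degradation were slightly higher in transgenic mice across most genes measured. Of 65 tested cytosolic ribosomal protein genes 64 were higher and 45 had separate groups (69.2%, against 13.2% of all genes). The median difference was 0.20, and 0.12 without transgenic mouse 1. The deviations were -0.08, -0.09 and -0.12 in the controls and 0.23, 0.01 and 0.04 in the transgenic group. Rps9, of the small subunit, read 9.29, 9.38 and 9.37 against 10.09, 9.74 and 9.55 (0.45 ± 0.14, adjusted p = 0.42, limma), and Rplp0, of the stalk, 10.55, 10.37 and 10.47 against 11.19, 10.87 and 10.60 (0.42 ± 0.15). Rps2, with a smaller spread, read 12.59, 12.65 and 12.62 against 12.77, 12.74 and 12.74 (0.13 ± 0.09). Of 48 translation factors 42 were higher, 14 with separate groups and 2 lower with them (29.2% and 4.17%). The median was 0.14, and 0.11 without transgenic mouse 1. Eif3e, Eif3d and Eif3f, subunits of the scaffold initiation factor, differed by 0.42 ± 0.14, 0.34 ± 0.15 and 0.33 ± 0.14, and Eif4b by 0.33 ± 0.14. Elongation factor Eef1a1 overlapped between the groups (0.13 ± 0.11).

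Taken as a list, proteasome genes were higher in all 3 transgenic mice, most in mouse 1 and least in mouse 3. Of 40 tested 37 were higher and 22 had separate groups (55.0%), and the median was 0.18, between 0.17 and 0.22 without any 1 mouse and 0.13 after median centring. The deviations were -0.06, -0.10 and -0.13 in the controls and 0.15, 0.11 and 0.07 in the transgenic group, so that the groups did not overlap. Psmd4, a ubiquitin receptor of the cap, read 9.59, 9.55 and 9.58 against 9.98, 9.83 and 9.81 (0.30 ± 0.10, adjusted p = 0.42, limma), and the core subunit Psmb7 10.15, 9.99 and 10.10 against 10.52, 10.57 and 10.16 (0.34 ± 0.13). Psmf1, an inhibitor of the proteasome, was also higher (0.35 ± 0.12). Among 30 ubiquitin-conjugating enzymes the median was 0.05 and its sign turned after median centring (-0.0054).

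Mitochondrial transcripts differed by less. Of 33 complex I genes 28 were higher, 7 with separate groups (21.2%), with a median of 0.09, and of 39 genes of complexes II to V 31 were higher, 8 with separate groups (20.5%), with a median of 0.06. After median centring these medians were 0.034 and 0.0081. In complex I transgenic mouse 3 was the highest (0.11) and mouse 1 level with the mean (0.00), unlike the order in glial genes. Ndufs3, a core subunit, read 10.51, 10.37 and 10.46 against 10.61, 10.68 and 10.69 (0.21 ± 0.10), and the accessory subunit Ndufb7 differed by 0.21 ± 0.10. The succinate dehydrogenase subunits Sdhc and Sdhb differed by 0.39 ± 0.16 and 0.17 ± 0.10. Of 73 mitochondrial ribosomal protein genes 52 were higher, 13 with separate groups (17.8%), with a median of 0.08 that was 0.013 after quantile normalization again. Of 17 glycolysis genes 16 were higher by a median of 0.05, which turned to -0.0005 after median centring, and Gapdh read 13.21, 13.22 and 13.21 against 13.24, 13.22 and 13.28.

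**Figure D4:**
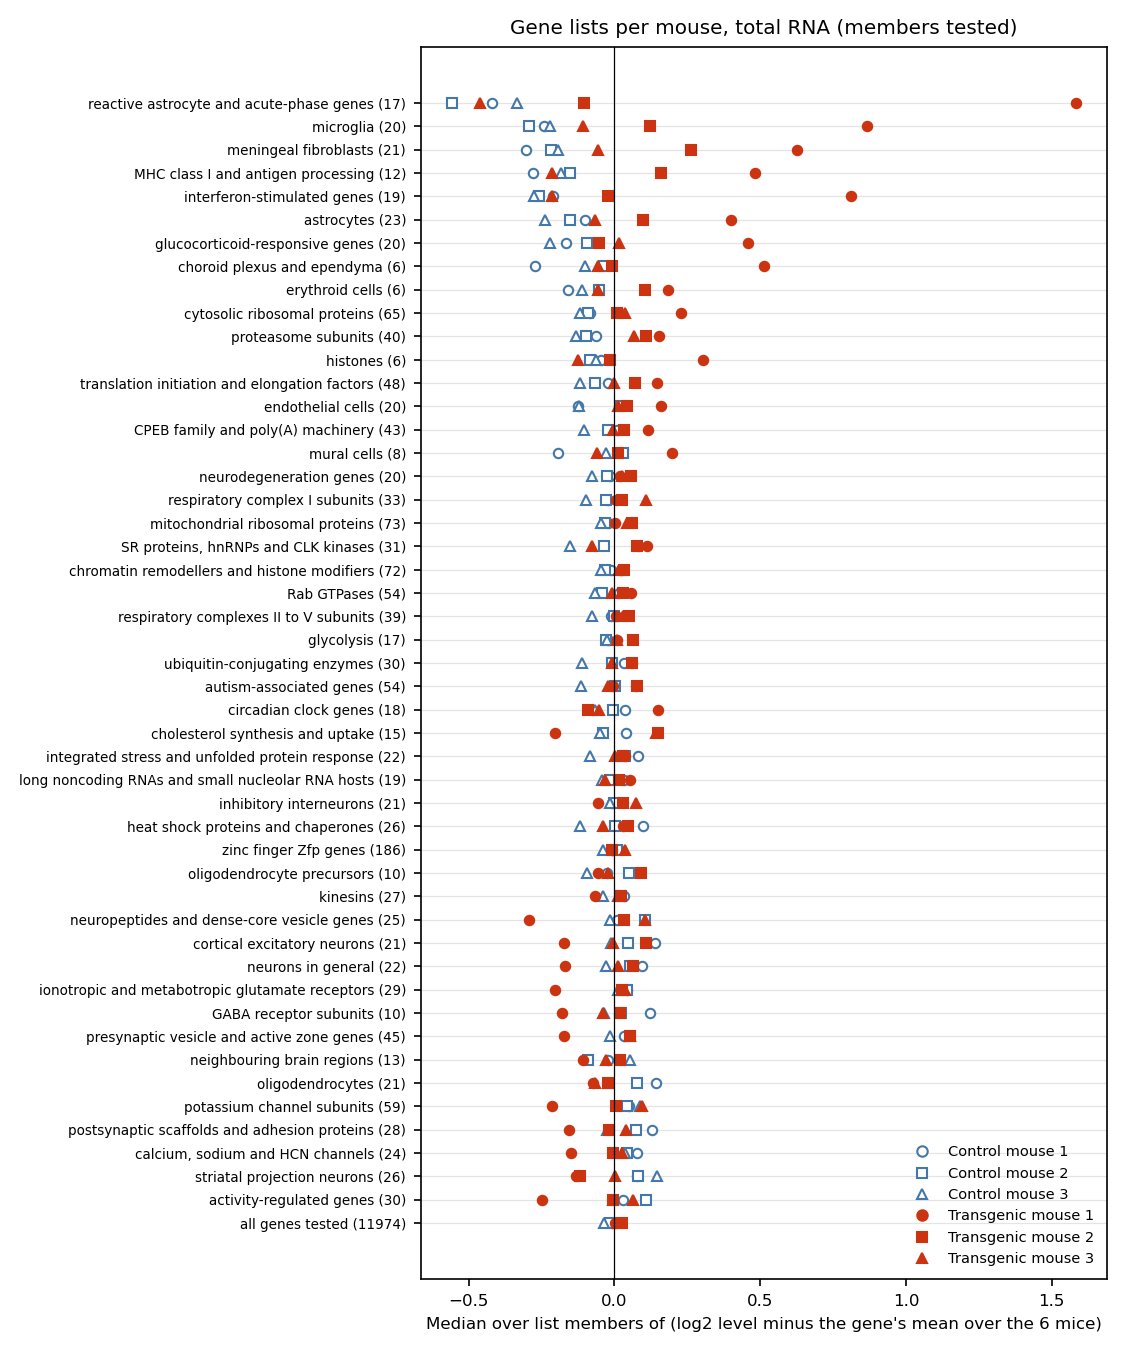
Each row is a gene list (number of genes tested) and each point 1 mouse, placed at the median over the genes of the log2 level minus the gene's mean over the 6 mice in total RNA. Transgenic mouse 1 is far to the right in the reactive astrocyte (1.58), microglial (0.87) and interferon-stimulated lists (0.81). In the proteasome list the 3 transgenic mice span 0.07 to 0.15, all to the right of the controls.

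Genes of striatal projection neurons, the main output cells of the striatum, were lower. Of 26 tested 20 were lower, 9 with separate groups (34.6%, against 6.66% of all genes) and none higher with them, and the median was -0.14, between -0.18 and -0.12 without any 1 mouse. The deviations were 0.08, 0.08 and 0.15 in the controls and -0.13, -0.12 and 0.00 in the transgenic group. Rgs9, which ends dopamine receptor signals, read 9.63, 9.65 and 9.60 in the controls and 8.90, 9.05 and 9.27 in the transgenic group (-0.55 ± 0.12, adjusted p = 0.42, limma). Ryr1, a calcium release channel, read 8.86, 8.89 and 8.76 against 7.99, 8.06 and 8.58 (-0.63 ± 0.16), and Scn4b, a sodium channel subunit, 8.03, 8.11 and 8.24 against 7.30, 7.37 and 7.84 (-0.63 ± 0.15), with 1 of 3 transgenic arrays above the bar. In Rgs9, Ryr1 and Scn4b transgenic mice 1 and 2 were low and mouse 3 nearer to the controls. Pde10a, the phosphodiesterase of these cells, read 11.30, 11.20 and 11.28 against 10.80, 10.96 and 10.93 (-0.37 ± 0.10). Arpp21, a phosphoprotein of these neurons, differed by -0.14 ± 0.10, and Syndig1l by -0.41 ± 0.16. Whether the share of striatum in the dissected tissue differed between the samples was not tested.

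Neurons in general and those of the cortex showed no common direction apart from transgenic mouse 1. The median of 22 general neuronal genes was -0.06 and that of 21 genes of cortical excitatory neurons -0.06, and without this mouse they were 0.01 and 0.03. The vesicle fusion protein Snap25 read 12.88, 12.81 and 12.79 in the controls and 12.59, 12.75 and 12.74 in the transgenic group (-0.14 ± 0.10), while the deubiquitinase Uchl1 read 11.93, 11.84 and 11.93 against 11.98, 12.15 and 12.01 (0.15 ± 0.10). Within the cortical list 2 genes were higher and 2 lower with separate groups (9.52% each, against 13.2% and 6.66% of all genes). Crym, a thyroid hormone binding protein of deep layers, read 10.04, 9.99 and 9.74 against 10.37, 10.61 and 10.35 (0.52 ± 0.13, adjusted p = 0.42, limma), and the transcription factor Neurod2 was higher by 0.26 ± 0.10. Cux1, a transcription factor of upper layers, read 9.05, 8.89 and 8.78 against 8.47, 8.56 and 8.61 (-0.36 ± 0.11), and Lamp5 was lower, as given above. Of the 5 other tested probe sets of Cux1, 3 had the same sign. Interneuron genes had a median of 0.02 that turned after median centring (-0.04) and was 0.097 without transgenic mouse 1. Calb2 (calretinin) read 9.13, 9.01 and 8.97 against 9.76, 9.64 and 9.50 (0.60 ± 0.11) and the tachykinin Tac2 7.32, 7.37 and 7.27 against 8.05, 7.54 and 7.99 (0.54 ± 0.15), whereas parvalbumin (Pvalb) differed by -0.19 ± 0.10. Tcf7l2, high in thalamus, was the 1 gene with separate groups (7.69%, 0.34 ± 0.13) among 13 markers of neighbouring regions, whose median was -0.08.

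Synaptic and channel lists had small negative medians, most of which lay nearer to 0 or turned positive without transgenic mouse 1. Of 29 glutamate receptor genes 22 were lower (median -0.07, and -0.04 without this mouse), of 28 postsynaptic scaffold and adhesion genes 23 (-0.11, and -0.05), of 45 presynaptic genes 29 (-0.08, and 0.02), of 59 potassium channel genes 38 (-0.10, and -0.02), and of 24 calcium, sodium and HCN channel genes 20 (-0.12, and -0.06). Groups were apart on the lower side in 4, 4, 5, 10 and 4 of these genes (13.8%, 14.3%, 11.1%, 16.9% and 16.7%, against 6.66% of all genes). On the higher side they were apart in 3, 2, 2, 3 and 0 (10.3%, 7.14%, 4.44%, 5.08% and 0.0%, against 13.2%). The 10 GABA receptor genes had a median of -0.07 with and without this mouse, with 7 lower, 2 of them with separate groups (20.0%). Cacng3, an auxiliary AMPA receptor subunit, read 11.29, 11.32 and 11.27 in the controls and 10.57, 10.99 and 10.98 in the transgenic group (-0.45 ± 0.13, adjusted p = 0.42, limma). The postsynaptic scaffold Homer1 read 10.79, 10.87 and 10.68 against 9.75, 10.31 and 10.53 (-0.59 ± 0.19). Of potassium channels Kcna4 read 9.14, 9.01 and 9.36 against 8.61, 8.77 and 8.85 (-0.42 ± 0.13), and of GABA-A receptor subunits Gabrd 7.91, 8.09 and 8.10 against 7.24, 7.45 and 7.74 (-0.55 ± 0.14), with 1 of 3 transgenic arrays above the bar. The L-type calcium channel Cacna1c read 9.16, 8.96 and 8.89 against 8.70, 8.58 and 8.79 (-0.31 ± 0.12), while its other tested probe set did not differ in this way (0.004, groups overlapping). Some genes of these lists were higher. Camk2d, a subunit of the calcium-calmodulin kinase, read 9.95, 9.74 and 9.81 against 10.21, 10.13 and 10.30 (0.38 ± 0.11), and Cacng5 was higher by 0.45 ± 0.12. Gria1, Camk2a and Gabbr1 overlapped between the groups.

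Genes regulated by neuronal activity had a median of -0.16 over 30 genes, with 14 higher and 16 lower. It was 0.02 without transgenic mouse 1 and -0.28 without transgenic mouse 3. The transcription factor Egr1 read 11.60, 11.49 and 11.28 in the controls and 10.30, 11.24 and 11.34 in the transgenic group (-0.50 ± 0.25), so mouse 1 was far below and mouse 3 among the controls. The neurotrophin Bdnf read 7.64, 7.78 and 7.57 against 6.51, 7.33 and 7.42 (-0.58 ± 0.22, adjusted p = 0.43, limma), with 1 of 3 transgenic arrays above the bar. Jun went the other way, at 8.67, 8.42 and 8.43 against 9.23, 8.71 and 8.90 (0.44 ± 0.15). Of 25 neuropeptide and dense-core vesicle genes, among them Ptprn2, the median was -0.05, and 0.08 without transgenic mouse 1.

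Glucocorticoid-responsive genes were higher. Of 20 tested 18 were higher, 7 with separate groups and 1 lower with them, with a median of 0.28 and of 0.16 without transgenic mouse 1. Of all genes 13.2% were higher and 6.66% lower with separate groups. The higher share of this list was thus above that of all genes and its lower share below. The deviations were -0.17, -0.09 and -0.22 in the controls and 0.46, -0.05 and 0.02 in the transgenic group. Sgk1, a kinase that stress hormones induce, read 9.46, 8.87 and 9.02 in the controls and 10.73, 9.83 and 9.72 in the transgenic group (0.98 ± 0.27, adjusted p = 0.42, limma). Nfkbia, the inhibitor of NF-kappaB, read 8.04, 8.07 and 8.11 against 9.20, 8.49 and 8.75 (0.74 ± 0.17), and the sulphotransferase Sult1a1 differed by 0.70 ± 0.25. Metallothionein Mt1 read 11.66, 11.73 and 11.75 against 12.72, 12.03 and 11.87. Ddit4, given above, belongs to this list as well. The 18 clock genes had a median of 0.04 that turned after median centring (-0.02), with the output factor Dbp higher (0.35 ± 0.13) and Npas2, a partner of BMAL1, lower at 9.54, 9.71 and 9.67 against 9.33, 9.32 and 9.38 (-0.30 ± 0.10). The labels do not state the time of day of dissection.

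Other stress classes had medians near that of all genes. Heat shock proteins and chaperones had a median of 0.01 and genes of the integrated stress and unfolded protein response of 0.02, and both turned sign after median centring (-0.04 and -0.03). Hspa8, the constitutive chaperone, read 12.04, 12.01 and 11.97 in the controls and 11.76, 11.89 and 11.91 in the transgenic group (-0.16 ± 0.10), opposite to Hspb8. Ddit3 (CHOP), an effector of the unfolded protein response, was lower in all 3 transgenic mice (-0.18 ± 0.10), and the serine synthesis enzymes Phgdh and Psat1 were higher (0.33 ± 0.14 and 0.23 ± 0.12). No gene of these lists passed the test.

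RNA-binding and chromatin genes differed singly. Of 31 SR proteins, hnRNPs and CLK kinases (median 0.07, and 0.0065 without control mouse 3) Cirbp and the splicing factor Srsf6 were highest in difference, the latter at 8.72, 8.55 and 8.37 against 9.24, 8.87 and 9.01 (0.49 ± 0.14, adjusted p = 0.42, limma). Of 72 chromatin genes 48 were higher, 9 with separate groups (12.5%, near the 13.2% of all genes). Chd3, a helicase of the NuRD complex, read 9.36, 9.44 and 9.30 against 9.89, 9.99 and 9.82 (0.54 ± 0.10), and Smarcd3, a subunit of the neuronal BAF complex, 8.87, 8.88 and 8.93 against 9.28, 9.25 and 9.30 (0.38 ± 0.09). In both genes the 3 transgenic mice were close together. Of 186 Zfp zinc finger genes (median 0.01, turning after median centring) Zfp146 differed by 0.65 ± 0.12 and Zfp46 by 0.50 ± 0.11. Of 19 long noncoding RNAs and small nucleolar RNA hosts, Neat1, the scaffold of paraspeckles, read 8.88, 8.76 and 8.65 against 10.18, 9.51 and 8.89 (0.76 ± 0.28), and Kcnq1ot1, an imprinted antisense RNA, 10.10, 10.17 and 9.98 against 9.43, 9.84 and 9.66 (-0.44 ± 0.13).

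The 54 tested autism-associated genes had no common direction. Of them 30 were higher and 24 lower, 3 and 2 with separate groups (5.56% and 3.70%, against 13.2% and 6.66% of all genes), and the median was 0.04, which turned to -0.01 after median centring and to -0.03 without control mouse 3. Besides Cacna1c, the separate genes named by the rule were the methyltransferase Nsd1 (0.26 ± 0.12), the transcription factor Deaf1 (0.19 ± 0.11) and the demethylase Kdm5b (0.13 ± 0.10), all higher. Of 20 neurodegeneration genes 14 were higher, 6 with separate groups, and the median was 0.10 (0.05 without transgenic mouse 1). The share of 6 in 20 was above the 13.2% of all genes. The presenilin Psen2 read 8.86, 8.89 and 8.77 against 9.24, 9.13 and 9.01 (0.29 ± 0.11, adjusted p = 0.43, limma), and App, the amyloid precursor, overlapped. Rab GTPases (54 genes, median 0.07), kinesins (27, -0.03), histones (6, 0.17, and 0.0006 without transgenic mouse 1) and cholesterol genes (15, 0.04) followed. Groups were apart in 10 higher and 4 lower Rab genes (18.5% and 7.41%, against 13.2% and 6.66% of all genes). Of these Rab4b, of recycling endosomes, read 8.57, 8.44 and 8.51 against 8.87, 8.99 and 8.92 (0.42 ± 0.10). In cholesterol synthesis transgenic mouse 1 was the lowest of all mice (-0.20) and the other 2 transgenic mice were the highest (0.15 and 0.14).

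These genes were also read in both tail-length fractions of the same mice, which share their RNA with the total RNA arrays and are not independent of them. All 12 genes with the largest excess were higher in transgenic mice in both fractions, with separate groups in all 12 on short-tail and in 10 on long-tail arrays. Of the 12 with the largest deficit all were lower on short-tail arrays, 9 with separate groups, and 9 were lower on long-tail arrays, 4 with separate groups. Rgs4 differed by -0.68 on short-tail and 0.52 on long-tail arrays, Pdp1 by -0.61 and 0.34 and Tnnc1 by -0.87 and 0.25, with overlapping groups on the long-tail side. Vim differed by 2.02 and 2.08, close to its difference in total RNA, and Cirbp by 0.95 and 1.87. Where other probe sets of these 24 genes were tested, 7 of 8 for the higher and 5 of 5 for the lower genes had the same sign. Over all 131 genes named by the rule that had other tested probe sets, 184 of 223 of these had the same sign. At least 1 was of opposite sign in 32 genes, among them H2-D1, Psmf1, Psmd4, Slc1a2, Cacna1c, Cotl1, Cux1 and Srsf6.

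**Figure D5:**
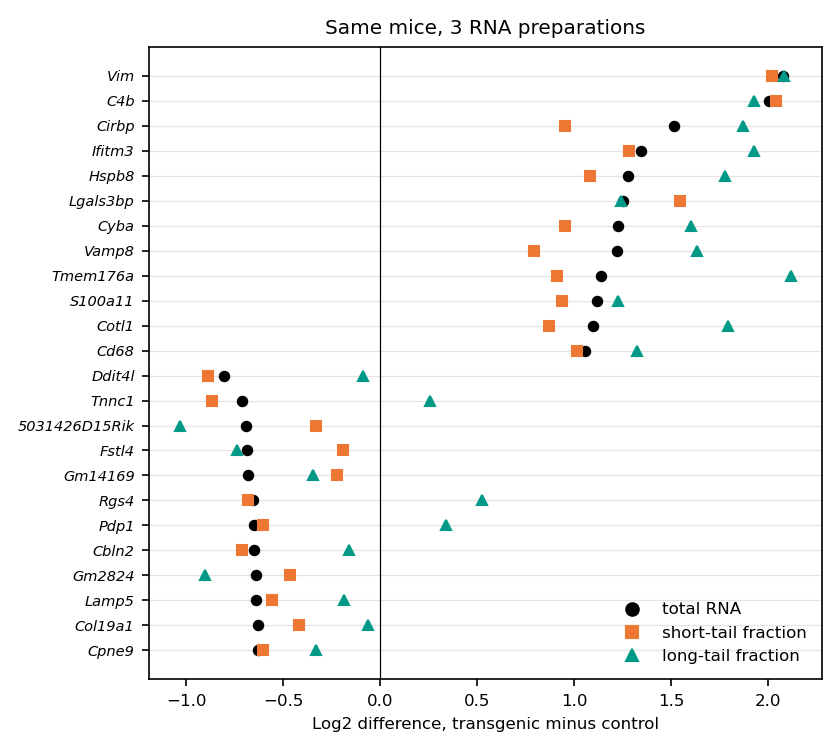
For the 12 genes with the largest excess and the 12 with the largest deficit, the log2 difference between transgenic and control mice is shown in total RNA and in the short-tail and long-tail fractions of the same mice. The excess genes are positive in all 3 preparations, and 3 of the deficit genes (Rgs4, Pdp1 and Tnnc1) are positive on long-tail arrays.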

How the data were processed

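Total RNA of cortex and striatum from 3 transgenic and 3 control mice was amplified from 5 ng and hybridised to Affymetrix mouse arrays. The deposited values are log2 levels made with RMA by the authors, per the submitters' processing notes. The array type in the design text and the probe set names differ, and genes were named from the platform annotation table. Of 45141 probe sets, 104 controls were left out; of the rest 28898 had 1 gene, 551 several and 15588 no entry. Groups came from the sample titles, and no column was left unmapped.

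Probe sets with a mean over the 18 arrays above the 40th percentile (5.953) were tested with limma 3.58.1 (statmod 1.5.0, R 4.3.3) on the 6 arrays, with Benjamini-Hochberg adjustment over 27022 probe sets; the test was checked on simulated data. An exact permutation test of 3 against 3 mice cannot go below 0.1. P-values set the difference between the genotypes against the spread between these mice, as limma estimates it. Arrays have no read depth, and their number limits the precision. The labels do not state whether mice of the same number are paired, and the main fit did not pair them. The correlations of deviations between same-numbered mice were 0.0899, -0.0415 and 0.258. Each comes from 1 pair of mice, so they cannot decide it.

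Named genes were the 12 largest differences in each direction among genes with separate groups, an unadjusted p under 0.05 and signal above background in the higher group, the leading genes of each list, the CPEB genes and the genes furthest from all others in each mouse. The comparison and the gene lists were chosen with earlier results of these data known. Alternatives were other filters, scalings, array weights, a fit over all 18 arrays, the replicate block and leaving out each mouse.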

Additional observations from a re-analysis of the deposited data

Results flagged for a closer look

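Of the probe sets that the annotation does not assign to a gene, and which enter no list above, 7468 were tested, and 416 were higher and 288 lower in all transgenic mice with signal above background (5.57% and 3.86%, against 10.3% and 2.93% of genes under the same rule). The 3 with the largest difference in each direction are given because they lie outside the genes described. Probe set 1422660_PM_at read 8.27, 8.01 and 7.74 in the controls and 10.09, 9.39 and 8.86 in the transgenic group (difference 1.44 on the log2 scale). Probe set 1448734_PM_at read 6.99, 6.63 and 6.76 against 9.32, 7.85 and 7.33, a difference of 1.37. Probe set 1456380_PM_x_at read 8.39, 8.11 and 7.98 against 10.32, 9.23 and 8.63, a difference of 1.23. In each, transgenic mouse 1 was the highest. On the lower side 1454451_PM_at read 8.22 to 8.75 in the controls and 6.80 to 7.55 in the transgenic group, a difference of -1.18. Probe set 1444139_PM_at read 8.65, 8.68 and 8.47 against 7.52, 7.73 and 7.72, a difference of -0.94, with the lowest adjusted p of the whole test (0.36, limma). Probe set 1440425_PM_at read 8.19, 8.24 and 7.54 against 6.47, 7.39 and 7.37, a difference of -0.91. None of the 6 passed the test (adjusted p = 0.36 to 0.42, limma).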

How the results depend on the processing

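With 3 mice per genotype, no difference of any size passed the test in the main fit. Small differences near the array background cannot be told from spread. Array weights gave the only setting with calls, 3901 probe sets, and 5453 higher and 3557 lower at an unadjusted p under 0.05. At that threshold the fit of all 18 arrays gave 1256 higher, median centring 1285 higher and 1718 lower, the 60th percentile filter 511 lower and no filter 2136 lower. Leaving out 1 mouse gave 1175 to 2902 higher and 564 to 1526 lower. The percent of genes with separate groups was 8.43 higher and 10.7 lower after median centring, and 16.9 to 23.5 and 8.57 to 15.4 without 1 mouse, where fewer mice make separation easier. The fit with the replicate block gave 2519 higher, 1255 lower and no calls (lowest adjusted p 0.29, limma), and not every mouse correlated best with its own number. After median centring list medians were -0.089 (border macrophages), -0.037 (interneurons), 0.030 (mitochondrial ribosomal proteins), 0.034 (complex I), 0.0081 (complexes II to V), 0.13 (proteasome), 0.018 (chromatin), -0.037 (Zfp), -0.0005 (glycolysis), -0.036 (long noncoding RNAs), -0.084 (kinesins), 0.016 (Rab) and 0.051 (neurodegeneration). After quantile normalization again they were 0.013 (mitochondrial ribosomal proteins), 0.14 (proteasome), 0.0093 (chromatin), -0.014 (Zfp) and 0.043 (neurodegeneration). Averaging each gene's probe sets gave 0.049 (mitochondrial ribosomal proteins), 0.048 (chromatin) and 0.019 (kinesins), the 60th percentile filter -0.32 (activity), no filter -0.0093 (border macrophages), and members above background 0.29 (endothelial). Without 1 mouse medians ranged from -0.061 to -0.016 (border macrophages), -0.025 to 0.097 (interneurons), -0.11 to 0.042 (neighbouring regions), 0.12 to 0.25 (cytosolic ribosomal proteins), -0.072 to 0.071 (stress response), -0.28 to 0.024 (activity), -0.15 to 0.021 (presynaptic), 0.049 to 0.077 (chromatin), -0.013 to 0.029 (Zfp), 0.0006 to 0.23 (histones), -0.021 to 0.17 (long noncoding RNAs), -0.070 to 0.018 (kinesins), 0.054 to 0.13 (Rab) and 0.051 to 0.13 (neurodegeneration). The cause of these shifts was not tested.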
